A study of Mus musculus with 6 samples.

Results

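The genes described here handle the inhibitory transmitter GABA. They are Gad1 and Gad2, which encode the 2 glutamate decarboxylases that make it, Slc32a1, which loads it into synaptic vesicles, Slc6a11 and Slc6a13, plasma membrane transporters that take it up, and Abat, the mitochondrial transaminase that breaks it down. The 6 genes were chosen by name, and each had 1 row among the 34745 genes of the table. Their RNA was measured by RNA-seq in the medial ganglionic eminence (MGE), a ventral forebrain region of the embryo that gives rise to cortical interneurons and pallidal neurons. The mouse embryos were at embryonic day 12.5. One group of 3 libraries came from wild type littermate controls and the other group of 3 from embryos with the genotype Sp9-/-, labelled as null mutants. Sp9 encodes a zinc finger transcription factor of the Sp family. Both groups shared a mixed background of CD1, 129S6 and C57BL/6J descent. The labels name no litter, batch or number of embryos per library, so the p-values rest on differences among samples that may in part be technical. Where 3 values follow each other, they are those of replicates 1, 2 and 3.

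GABA is made from glutamate in the cytosol of inhibitory neurons, packed into vesicles, released, taken back up and degraded to succinic semialdehyde. The Gad2 enzyme is found mostly at nerve terminals and the Gad1 enzyme throughout the cell, and both need the cofactor pyridoxal phosphate. In the embryonic subpallium, transcription of the decarboxylase genes accompanies the birth of GABA neurons and is known to depend on Dlx homeobox factors.

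The libraries held 6826447 to 10979280 counts. Sp9 had 1870 to 2700 counts in wild type and 89 to 118 in null libraries, so its level matched the labels in all 6. Of the MGE genes, Nkx2-1 was at 848 ± 68.9 CPM (counts per 1000000 counts summed over all genes) in wild type and 926 ± 27.4 CPM in the null (SD, n = 3 each). The 9 MGE genes listed summed to 3495 to 3749 CPM in wild type and 4243 to 4420 CPM in null libraries. Much of that difference lay in Dlx1 (means of 923 and 1469 CPM) and Dlx2 (441 and 569 CPM). The sum was therefore not read as a measure of MGE content. In the fit with replicate number described below 2 rose, Dlx1 by 0.69 and Dlx2 by 0.39 on the log2 scale, and 1 fell. That gene, Lhx6, which marks postmitotic MGE neurons, had 521 ± 51.9 CPM (wild type) and 375 ± 35.6 CPM (null), and fell by 0.45 (edgeR adjusted p = 6.01e-06). Replicate 2 of both genotypes stood apart on the first principal component, which held 51.82% of the variance. Summed over 6 pan-neuronal genes, the wild type and null replicate 2 had 2789 and 2331 CPM, against 3467 to 3836 CPM in the other libraries. Summed over 7 radial glia genes it had 2889 and 2727 CPM, against 2022 to 2386 CPM. The pallial marker Tbr1 had 7 and 1 counts there against 141 to 395. Between genotypes, the summed level of the 4 microglia markers ranged from 25.4 to 29.5 CPM in wild type and from 6.47 to 11.3 CPM in the null. All 4 were lower in that fit, which called 4.0% of all tested genes (2.22% higher and 1.78% lower). Aif1 was at 0 in null replicate 3. The 5 genes of the lateral ganglionic eminence and striatum summed to 304 to 325 CPM in wild type and 346 to 386 CPM in the null, with 3 higher in that fit. Ebf1, also of this list, was lower there but did not pass (-0.32, edgeR adjusted p = 0.144). With genotype as the only term, edgeR called 1 of the 9 MGE genes, Dlx1, and 0 of the microglia, lateral ganglionic eminence and striatum genes. Lhx6 had an edgeR adjusted p of 0.339 with that term alone. Tbr1 was higher in the fit with replicate number (edgeR log2 fold change 0.81, adjusted p = 0.0238), but did not pass with genotype as the only term (0.977). In replicate 2 it was lower in the null library. Of the 6 pallial genes listed 2 were tested, and the other, Slc17a6, did not pass with replicate number (0.72, adjusted p = 0.112). The part of these differences in the results below was not tested except where counts per neuronal count are given.

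The starts of Gad1, Gad2 and Slc32a1, the members with the clearest differences, all lie on chromosome 2, as does Sp9. Their promoter windows from RefSeq are shown because their RNA moved in different directions. The windows cover 250 bases before to 50 after the RefSeq start on the plus strand (GRCm38.p6). For Gad1 this start lies inside the deposited span of the gene, which begins at 70553072. Capitals mark GGGCGG on either strand, the GC box that Sp family proteins are known to bind.
Gad1, chr2:70561879-70562178: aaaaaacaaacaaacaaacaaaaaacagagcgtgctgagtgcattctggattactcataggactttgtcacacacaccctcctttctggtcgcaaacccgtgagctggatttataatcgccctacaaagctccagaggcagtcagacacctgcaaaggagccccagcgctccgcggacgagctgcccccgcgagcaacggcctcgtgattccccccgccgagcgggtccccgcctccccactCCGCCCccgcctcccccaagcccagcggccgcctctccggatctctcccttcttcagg
Gad2, chr2:22622077-22622376: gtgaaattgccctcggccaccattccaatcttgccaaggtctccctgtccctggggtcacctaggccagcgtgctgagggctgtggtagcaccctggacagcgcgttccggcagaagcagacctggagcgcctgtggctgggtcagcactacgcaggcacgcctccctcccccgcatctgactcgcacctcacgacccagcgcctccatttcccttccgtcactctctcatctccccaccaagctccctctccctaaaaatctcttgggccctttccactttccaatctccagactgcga
Slc32a1, chr2:158610508-158610807: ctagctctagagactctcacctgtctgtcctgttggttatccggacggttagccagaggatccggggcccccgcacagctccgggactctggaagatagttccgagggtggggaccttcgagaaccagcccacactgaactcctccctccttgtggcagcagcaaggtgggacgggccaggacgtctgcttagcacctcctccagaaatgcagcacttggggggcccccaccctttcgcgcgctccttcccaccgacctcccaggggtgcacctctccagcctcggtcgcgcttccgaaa
The Gad1 window held 1 match to GGGCGG, and the Gad2 and Slc32a1 windows held 0. Of 32851 promoter windows of this length in the table, 35.7% held at least 1. The homeodomain motif TAATTA, searched on both strands and not overlapping the other, had 0 matches in the 3 windows and occurred in 5.29% of all windows. Such matches describe the letters only. The table had windows for 5 of the 6 genes, Abat being the other one. The Slc6a11 window held 4 matches to GGGCGG, and the first of the 3 Slc6a13 windows held 2.

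Gad1 was lower in every Sp9 null library than in any wild type library. Gad2 was higher in the null library of each replicate number, but its groups overlapped and the labels do not pair the numbers. The share of all tested genes with such an order within numbers was not counted. Gad1 (ENSMUSG00000070880, chromosome 2, 70553072 to 70602014, GRCm38) had wild type values of 249, 209 and 254 CPM. Its null values were 153, 99.0 and 156 CPM. The lowest wild type value thus lay above the highest null value. Such a separation, with the null libraries below, occurred in 8.06% of all tested genes. Gad1 was the only tested member with groups that did not overlap, against 13.0% of genes for either direction and 4.95% with the null libraries above. The means were 237 ± 24.9 and 136 ± 32.0 CPM (SD, n = 3 each). In bulk tissue, fewer expressing cells and less RNA per cell cannot be told apart.

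Gad2 (ENSMUSG00000026787, chromosome 2, 22622205 to 22693874) had wild type values of 379, 309 and 398 CPM and null values of 467, 380 and 546 CPM. The groups overlapped, because null replicate 2 lay below wild type replicate 3, and replicate 2 was the lowest library of both genotypes. The means were 362 ± 46.8 CPM in wild type and 465 ± 83.2 CPM in the null (SD, n = 3 each).

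**Figure D1:**
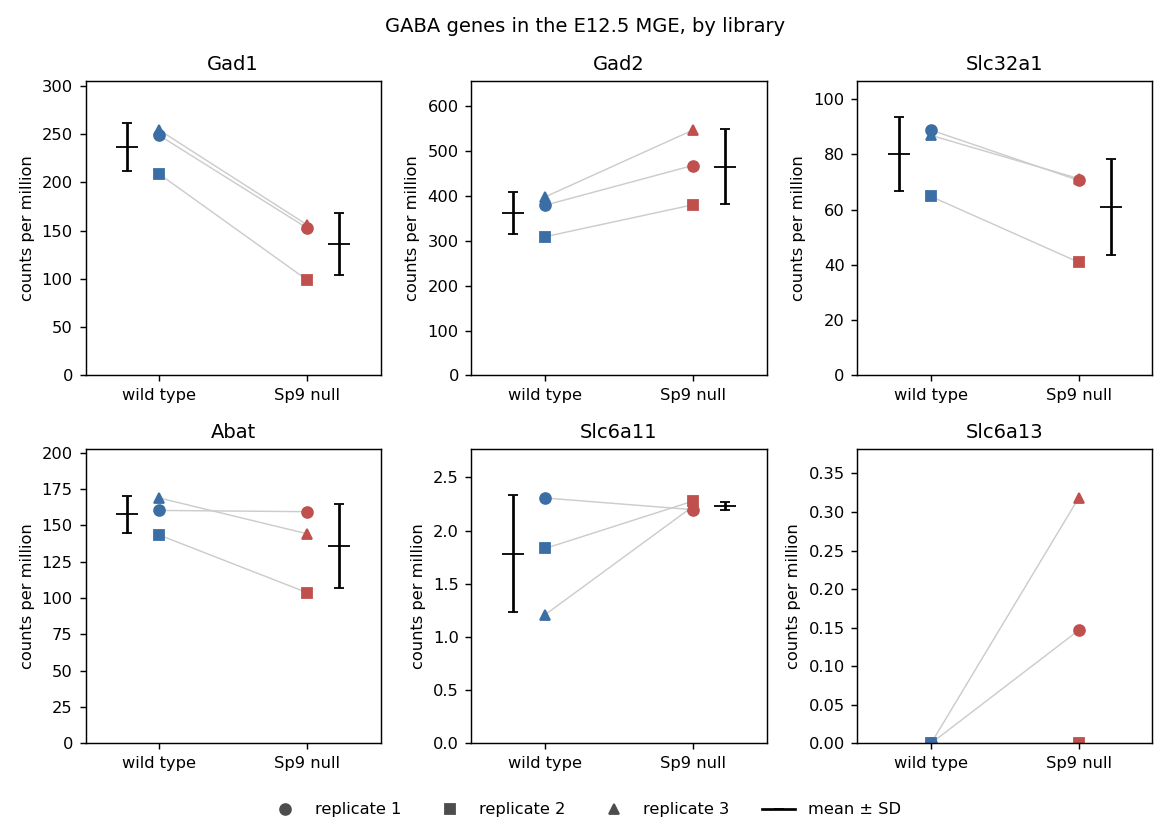
CPM of the 6 GABA genes in each library, wild type in blue and Sp9 null in red, with the marker shape giving the replicate number, grey lines joining equal numbers and black bars the mean ± SD (n = 3; not drawn for Slc6a13, which is near 0). The Gad1 groups do not overlap (209 to 254 against 99.0 to 156), Gad2 is higher in the null library of each number, and replicate 2 is the lowest library of each genotype for Gad1, Gad2, Slc32a1 and Abat.

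In edgeR's quasi-likelihood test with genotype as the only term, 0 of the 5 members that passed the expression filter were called at a Benjamini-Hochberg adjusted p under 0.05, against 0.147% of the 14929 genes tested (0.0469% higher and 0.10% lower in the null). At an unadjusted p under 0.05 there were 2 members, Gad1 and Gad2, and DESeq2 called 1, Gad1. Over all tested genes, 882 (5.91%) had such an unadjusted p, and DESeq2 called 84. For Gad1 the log2 ratio of null to wild type was -0.79 (SE 0.17, 95% interval -1.18 to -0.39, edgeR adjusted p = 0.345) and for Gad2 it was 0.38 (SE 0.15, interval 0.04 to 0.72, adjusted p = 0.801). By DESeq2 Gad1 had adjusted p = 0.00284. Without null replicate 2 the Gad1 value was -0.60 (edgeR adjusted p = 0.0780), and without null replicate 3 the Gad2 value was 0.24 (0.9503).

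With each genotype's mean subtracted, wild type and null replicate 2 resembled each other most (correlation 0.729 over genes). Replicates 1 and 3 were less distinct. Wild type 1 had 0.336 with null 1 and 0.354 with null 3, and wild type 3 had 0.230 and 0.535. A fit with the number as a block was made as well. This pairing was taken from the same data and the labels do not explain it, so the blocked p-values are conditional on it. With the replicate block 3 of the 5 members were called, 2 lower and 1 higher, against 4.0% of all tested genes (1.78% lower and 2.22% higher). Gad1 fell by 0.80 on the log2 scale (SE 0.07, blocked edgeR adjusted p = 3.15e-10) and Gad2 rose by 0.37 (SE 0.06, adjusted p = 5.58e-05). Within numbers 1, 2 and 3, the null minus wild type difference in log2 CPM was -0.70, -1.07 and -0.70 for Gad1. For Gad2 it was 0.30, 0.30 and 0.46. The smallest Gad1 difference was thus larger than the largest of Gad2. Both calls held with each pair left out in turn, for Gad2 narrowly without pair 3 (adjusted p = 0.0492) and without pair 2 (0.0256).

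By the deposited spans, the Gad1 start lies 2.72 Mb from that of Sp9 on chromosome 2, and Gad2 and Slc32a1 lie 50.65 and 85.34 Mb from it. With the block, 15 (22.7%) of the 66 genes tested in the 5 Mb to either side of Sp9 passed, against 4.0% of all tested genes. Gad1 itself, Dlx1 and Dlx2 were among the 15. The nearest tested genes to Gad1 did not pass. Erich2, on the left side, had only 7 to 15 counts in each library and a blocked log2 fold change of -0.04 (95% interval -0.998 to 0.91). The predicted gene Gm26558, on the right, had -0.24 (interval -0.61 to 0.14). Whether the position near Sp9 bears on the Gad1 difference was not tested.

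The summed counts of the 2 decarboxylase genes overlapped between genotypes, while the share of each differed. Gad1 and Gad2 together summed to 628, 517 and 652 CPM in wild type. The null sums were 620, 479 and 702 CPM. The means were 599 ± 71.5 and 601 ± 113 CPM (SD, n = 3 each), a difference far smaller than the spread (two-sided exact permutation test p = 1). Gad1 made up 39.0% to 40.3% of that sum in wild type and 20.7% to 24.6% in the null libraries.

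The wild type libraries had 0.656, 0.675 and 0.639 Gad1 counts for each Gad2 count, and the null libraries 0.327, 0.261 and 0.286. The groups lay far apart, and the wild type values were nearly equal even in replicate 2, where both genes were low. The ratio was 2.27-fold lower in the null, a log2 difference of -1.18 with an SD of 0.04 in wild type and 0.16 in the null (n = 3 each). The two-sided exact permutation p was 0.1, as small as 3 libraries against 3 can give, and the ratio was lower in 3 of 3 null libraries. Library depth and scaling cancel in this ratio.

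**Figure D2:**
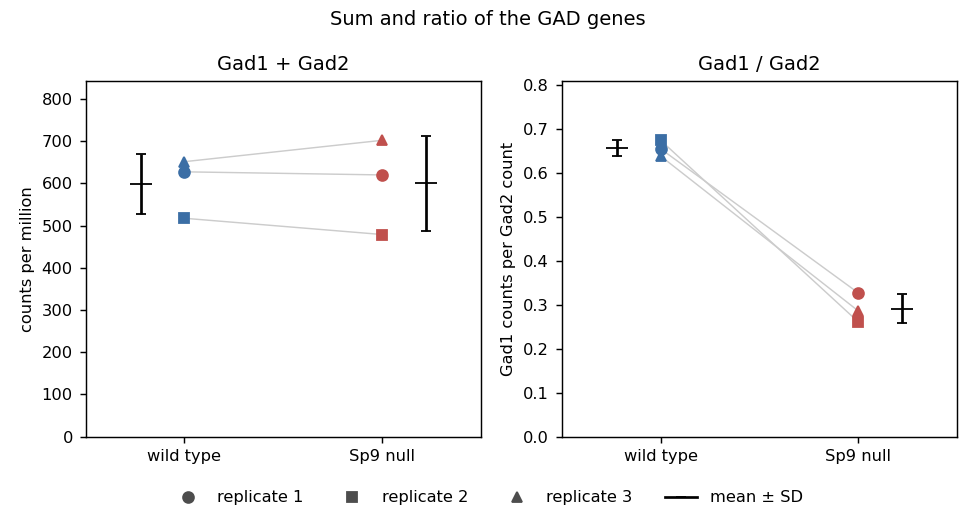
Sum of Gad1 and Gad2 in CPM (left) and Gad1 counts per Gad2 count (right) in each library, with grey lines joining libraries of the same replicate number and black bars the mean ± SD (n = 3). The sums overlap around 599 and 601 CPM, while the ratios lie between 0.639 and 0.675 in wild type and between 0.261 and 0.327 in the null libraries.

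Which decarboxylase gene had the higher level per kilobase in wild type depended on the length used. The length behind the deposited FPKM values (fragments per kilobase of length and 1000000 fragments) is not stated and was worked back from the counts. It came to 10204 bases for Gad1, 3.04 times the 3355 bases of its principal transcript in GENCODE M21, which has 17 exons. All Gad1 exons joined cover 7639 bases there. For Gad2 the length worked back was 5990 bases, against 5744 for the principal transcript. On the FPKM scale Gad1 was at 23.2 ± 2.44 and Gad2 at 60.4 ± 7.81 in wild type (SD, n = 3 each), and Gad2 was 2.52 to 2.67 times Gad1 in the 3 libraries. Per kilobase of the principal transcripts, Gad1 was at 70.7 ± 7.41 and Gad2 at 63.0 ± 8.14 CPM, and Gad2 was 0.865 to 0.914 times Gad1. In the null libraries Gad2 was above Gad1 on both scales, by 5.21 to 6.54 times in FPKM and by 1.79 to 2.24 times per kilobase of the principal transcripts. On the latter scale the 2 genes together came to 140.1, 115.9 and 144.95 in wild type and 126.9, 95.6 and 141.6 in the null. The groups overlapped, with means of 134 ± 15.5 and 121 ± 23.5 (SD, n = 3 each), but the null library was the lower one of each number, which was not so for the sum in CPM. That order rests on the numbering of the replicates, since null replicate 3 (141.6) lay above wild type replicate 1 (140.1). Differences between genotypes within a gene do not depend on the length.

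**Figure D3:**
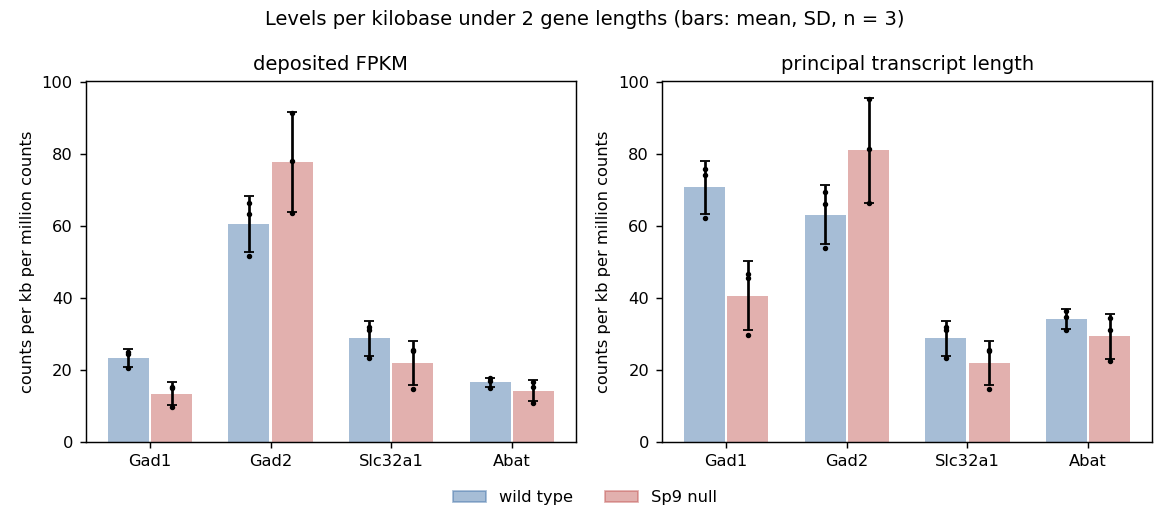
CPM per kilobase for Gad1, Gad2, Slc32a1 and Abat with the lengths behind the deposited FPKM (left) and with the principal transcript lengths (right), as group means with SD (n = 3) and 1 dot per library. Wild type Gad1 stands at 23.2 on the left and 70.7 on the right, below and slightly above Gad2 (60.4 and 63.0), while Slc32a1, with a length of 2797 bases in both, is the same.

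The order of the wild type levels in FPKM was Gad2, Slc32a1 (28.7 ± 4.78), Gad1, Abat (16.5 ± 1.36), Slc6a11 (0.346 ± 0.107) and Slc6a13 (listed at 0 in all 3 libraries). Slc32a1 and Gad1 were neighbours with overlapping values. Per kilobase of the principal transcripts the order was Gad1, Gad2, Abat (33.96 ± 2.80), Slc32a1 and Slc6a11, where the values of Gad1 and Gad2 overlapped, as did those of Abat and Slc32a1. In the null libraries the FPKM order was Gad2 (77.6 ± 13.9), Slc32a1 (21.8 ± 6.18), Abat (14.2 ± 3.01), Gad1 (13.3 ± 3.14) and Slc6a11 (0.434 ± 0.0078), where the middle 3 overlapped. Per kilobase of the principal transcripts it was Gad2 (80.9 ± 14.5), Gad1 (40.5 ± 9.55), Abat (29.3 ± 6.20), Slc32a1 (21.8 ± 6.18) and Slc6a11, so that Gad1 stood second on this scale.

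The vesicular transporter gene Slc32a1 (ENSMUSG00000037771, chromosome 2, 158610767 to 158615748) had wild type values of 88.8, 64.8 and 86.9 CPM. Its null values were 70.6, 41.0 and 71.3 CPM. Null replicates 1 and 3 lay above wild type replicate 2, so the groups overlapped, but the null library was the lower one of each number. Without the block its log2 fold change came to -0.38 (SE 0.22, 95% interval -0.91 to 0.15, edgeR adjusted p = 0.897), and -0.16 without null replicate 2. With the block it fell by 0.40 on the log2 scale (SE 0.08, adjusted p = 0.00112). Leaving out pair 2 ended that call (-0.29, adjusted p = 0.203), as did DESeq2 in place of edgeR (adjusted p = 0.0759).

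The predicted gene Gm14205 (chromosome 2, 158610910 to 158611820) lies inside Slc32a1 on the opposite strand, and 94.3% of its exon bases are also Slc32a1 exon bases in GENCODE M21, where they make up 24.9% of the Slc32a1 exons. The strandedness of the counting is not stated, so reads of the pair cannot be told apart. Gm14205 had wild type counts of 285, 260 and 300 and null counts of 173, 138 and 236. Its blocked log2 value came to -0.44 (SE 0.12, edgeR adjusted p = 0.0346), close to that of Slc32a1, and its call was lost when pair 2 was left out (-0.24, adjusted p = 0.545), when pair 3 was left out (-0.55, 0.114) and with DESeq2 (-0.44, 0.505). Gm14204, also on the opposite strand, lies 44 bases to the left of Slc32a1 by position, so the 2 genes point away from each other. Gm14204 had 185 ± 6.07 CPM (wild type) and 163 ± 14.1 CPM (null, SD, n = 3 each), and did not pass with the block (log2 fold change -0.16, edgeR adjusted p = 0.133). Neither did Actr5, the nearest tested gene on the right (-0.24, adjusted p = 0.178). Unlike those of Slc32a1, the groups of Gm14204 (178 to 190 against 147 to 172 CPM) and Actr5 (36.0 to 37.2 against 28.2 to 33.8 CPM) did not overlap. The null libraries lay below in both, as in 8.06% of all tested genes.

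The degrading enzyme gene Abat (ENSMUSG00000057880, chromosome 16, 8513429 to 8621568) had wild type values of 160, 143 and 169 CPM and null values of 159, 104 and 144 CPM. The groups overlapped, and null replicate 2 was the lowest library. Without the block its log2 fold change came to -0.20 (SE 0.15, 95% interval -0.54 to 0.14, edgeR adjusted p = 0.907), and -0.04 without null replicate 2. With the block it was -0.21 (interval -0.35 to -0.07, adjusted p = 0.0727), which missed the threshold. Within numbers 1, 2 and 3 the difference in log2 CPM was -0.01, -0.47 and -0.23. Without pair 1 Abat passed (-0.31, adjusted p = 0.00115), and without pair 2 it was at -0.10.

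Of the plasma membrane transporters, Slc6a11 (ENSMUSG00000030307, chromosome 6, 114131241 to 114249952) was scarce. Its wild type counts were 22, 20 and 12 and its null counts 15, 25 and 21, or 1.21 to 2.31 CPM over all 6 libraries. The groups overlapped. The log2 fold change of 0.35 had a 95% interval of -0.40 to 1.10 (edgeR adjusted p = 0.932), and the value was 0.57 without wild type replicate 1 and 0.13 without wild type replicate 3. Slc6a11 is known mainly from astrocytes, which arise later than this stage. Slc6a13 (ENSMUSG00000030108, chromosome 6, 121300227 to 121337733) had 0 counts in each of the 3 wild type libraries, and its null counts were 1, 0 and 3. These are at or under the floor of 3 counts per library, which is 0.273 to 0.440 CPM here and covers counting error only, and the gene was not tested. In the brain Slc6a13 is known from the meninges. The 7 markers of meninges and fibroblasts summed to 18.1 to 24.9 CPM (wild type) and 23.9 to 26.4 CPM (null).

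Relative to neuronal RNA, 3 of the members separated by genotype. Counts were divided by the summed counts of Tubb3, Dcx, Stmn2, Map2, Elavl3 and Elavl4, a comparison added after the values were seen. For each 1000 of these counts, Gad1 had 65.2, 74.8 and 67.9 counts in wild type and 44.1, 42.5 and 40.7 in the null. Gad2 had 99.4, 111 and 106 in wild type and 135, 163 and 142 in the null. Slc32a1 had 23.3, 23.2 and 23.2 in wild type and 20.4, 17.6 and 18.6 in the null. Wild type replicate 2, the lowest of its group in CPM, was the highest for Gad1 and Gad2 on this scale and level with the other libraries for Slc32a1. On this scale the null libraries lay below without overlap in 1.45% of all tested genes and above in 3.70%, or 5.15% in all. Abat overlapped, at 46.2 ± 4.76 and 42.7 ± 4.47 (SD, n = 3 each). The denominator is not neutral, since with the block Tubb3 fell by 0.40 and Elavl4 rose by 0.32 on the log2 scale. Slc32a1 fell by 0.40 in that fit, as much as Tubb3, so its separation depends on the neuronal genes chosen.

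**Figure D4:**
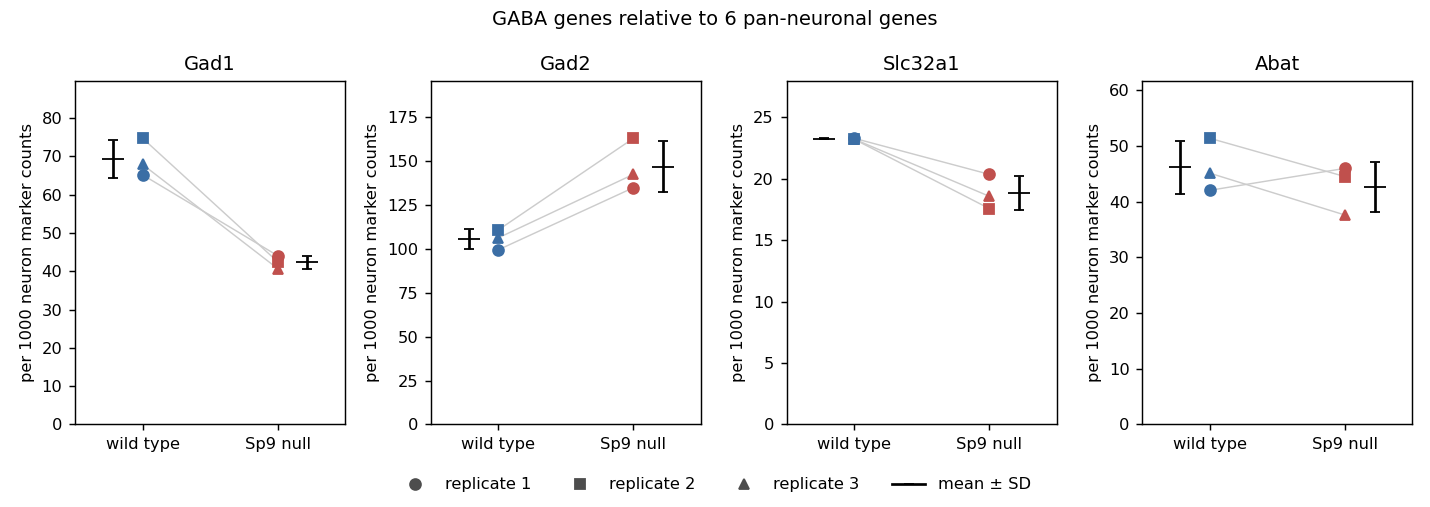
Counts of Gad1, Gad2, Slc32a1 and Abat per 1000 summed counts of 6 pan-neuronal genes in each library, with grey lines joining libraries of the same replicate number and black bars the mean ± SD (n = 3). Gad1 (65.2 to 74.8 against 40.7 to 44.1) and Slc32a1 (23.2 to 23.3 against 17.6 to 20.4) are lower and Gad2 (99.4 to 111 against 135 to 163) is higher in the null libraries, and Abat overlaps.

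Of 14 further genes described here, for glutamate and glutamine supply, uptake, the cofactor and later steps of GABA breakdown, 12 were tested. By edgeR 0 of these were called without the block (1 at an unadjusted p under 0.05, against 5.91% of all tested genes, and 0 by DESeq2). With the block 0 were called, against 4.0% of all tested genes, and 2 had an unadjusted p under 0.05, against 17.2%. They are not the whole pathway, and these counts hold for the 12 genes only. Their median log2 fold change was -0.003 with the block, against -0.01 over all tested genes.

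The 12 tested genes had log2 fold changes from -0.38 to 0.42 and blocked edgeR adjusted p of 0.131 or more. Glul, the glutamine synthetase gene, had 166 ± 5.23 CPM (wild type) and 163 ± 4.48 CPM (null; SD, n = 3 each), with a 95% interval of -0.17 to 0.16 for its log2 fold change. The glutamine transporter gene Slc38a1 was at 277 ± 22.9 and 294 ± 23.0 CPM. Aldh5a1, which oxidises succinic semialdehyde after the Abat step, was at 67.9 ± 2.47 and 68.7 ± 14.0 CPM. Akr7a5, an aldo-keto reductase gene whose enzyme can reduce succinic semialdehyde, was the only one of the 12 whose groups did not overlap, as in 13.0% of all tested genes. Its wild type values were 18.04, 19.8 and 15.4 CPM and its null values 12.5, 13.5 and 14.3 CPM, and it did not pass (log2 fold change -0.38, SE 0.15, edgeR adjusted p = 0.801, and 0.131 with the block). Csad, which encodes a related decarboxylase, had -0.33 (interval -0.70 to 0.04). With the block it had -0.32 (interval -0.59 to -0.05, edgeR adjusted p = 0.187). Pdxk, whose enzyme helps to make pyridoxal phosphate, had -0.03 (interval -0.43 to 0.37). Slc6a12 and Gadl1 had at most 5 counts in any library and were not tested.

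**Figure D5:**
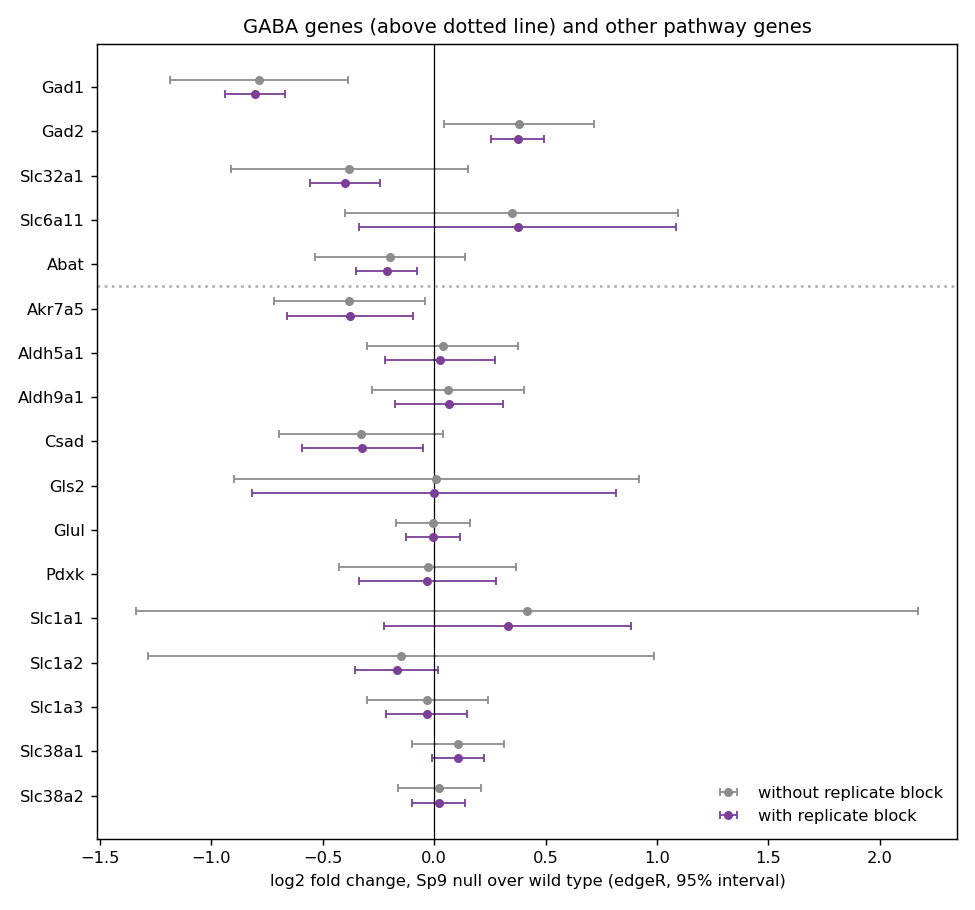
Log2 fold change of Sp9 null over wild type with its 95% interval from edgeR, without (grey) and with (purple) the replicate block, for the 5 tested GABA genes and 12 other pathway genes. With the block Gad1 (-0.80) and Slc32a1 (-0.40) lie below 0 and Gad2 (0.37) above, whereas most of the pathway genes have intervals that include 0.

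Genes whose log2 CPM followed a member most closely over the 6 libraries are given by Pearson's r, as a description, since all points share the libraries and the low replicate 2. For Gad1 they were RP23-333I12.3 (r = 0.997), Klhl5 (0.995) and Atp6v1g1 (0.991). For Gad2 they were Tpm1 (0.994), Zdbf2 (0.993) and Spock3 (0.992). For Slc32a1 they were Slc25a22 (0.996), Plxnb1 (0.996) and Tubb3 (0.993), the last a neuronal tubulin gene. The 3 lists had no gene in common.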

How the data were processed

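Read counts per gene and FPKM values were deposited by the authors in 1 table, per the file headers, for 3 wild type and 3 Sp9 null MGE libraries. TopHat, Cufflinks 2.1.1 and the build GRCm38.p4 are listed, with no role given, per the submitters' processing notes, and the counting program, strandedness and FPKM settings are not given in the sources used here. Coordinates are the table's; 80.79% of 34267 identifiers shared with GENCODE M21 had the same span there.

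The counts were tested with edgeR 4.0.16 (TMM, default expression filter, robust quasi-likelihood fit, two-sided, R 4.3.3) over 14929 genes. Standard errors were derived from each log2 fold change and its F statistic. The fits with and without the block were run on simulated counts. A replicate effect was built into those for the blocked fit, so this does not test the pairing itself. The deviations from the genotype mean correlated by 0.336, 0.729 and 0.535 between equal replicate numbers 1, 2 and 3, above the criterion of 0.1, but also by 0.354 between wild type 1 and null 3, so the pairing comes from the data. Replicates differed by more than counting noise (chi-square per degree of freedom 3.28 to 21.9). Alternatives used DESeq2 1.42.0 and limma 3.58.1.

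Members, gene lists and the rule for named genes (members, pathway list, overlapping and neighbouring genes, the 3 most correlated genes) were chosen with earlier results of these data known. Some genes of the pathway list are not reported here, and the list's counts were made without them, for a reason unrelated to their values; they include a gene that passed with the block, so the count of 0 called is not that of the whole list. Unused sample columns numbered 0.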

Additional observations from a re-analysis of the deposited data

How the results depend on the processing

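The sign of each tested member's log2 fold change was kept in every alternative fit. The main count of 22 called genes became 597 with the replicate block, 84 by DESeq2, 163 by DESeq2 with the block, 65 without the expression filter, 38 and 36 by limma on log2(FPKM + 0.1) and log2(FPKM + 1), and 2 to 34 with 1 library left out, the lowest without wild type replicate 1. The count of called members, 0, became 3 with the block, 1 by DESeq2 and 2 by DESeq2 with the block. Gad1 passed with the block (-0.80), by DESeq2 (-0.78) and by DESeq2 with the block (-0.80). Gad2 passed with the block (0.37) and by DESeq2 with it (0.38), and Slc32a1 with the block (-0.40).

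Within the blocked fit, the count of 597 was 163 by DESeq2 and 126 to 1193 with a pair left out, the lowest without pair 2. Slc32a1 missed the threshold by DESeq2 (-0.39) and ranged from -0.48 to -0.29 with a pair left out. Abat ranged from -0.31 to -0.10. The cause of these shifts was not tested. The Gad1 to Gad2 log2 ratio stayed between -1.27 and -1.10 with 1 library left out, and its paired sign-flip test gave an exact p of 0.25, the smallest that 3 pairs allow. Depth limits Slc6a11 and Slc6a13, with at most 25 and 3 counts in any library.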

Other observations

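Gad1os, an antisense gene on the opposite strand (chromosome 2, 70489940 to 70563357), spans the RefSeq start of Gad1 but shares 0 exon bases with it in GENCODE M21. Its wild type counts were 9, 2 and 6 and its null counts 4, 2 and 27, and it was not tested. Gad1 was at 153, 99.0 and 156 CPM in the same null libraries, and whether the 2 genes are related was not tested.

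The nearest tested gene on the left of Gad2, the predicted gene Gm13340, 32558 bases away, rose with the replicate block by 0.93 on the log2 scale (SE 0.22, edgeR adjusted p = 0.0117), as Gad2 did. Its wild type counts were 44, 48 and 51 and its null counts 34, 134 and 90. The share of mitochondrial counts was 2.20% to 2.28% in wild type and 2.32%, 3.43% and 3.41% in the null replicates, high in the same 2 libraries as Gm13340, and its part in that count was not tested. Gad2 itself did not follow this pattern. Apbb1ip, on the right, had 7 to 25 counts in each library and did not pass (blocked log2 fold change -0.58, SE 0.38).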
